A study of Homo sapiens with 4 samples.

Results

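Autophagy delivers damaged proteins and organelles to the lysosome, and the genes examined here encode its cargo receptors and core machinery. They were the 10 genes SQSTM1, NBR1, MAP1LC3B, GABARAPL1, GABARAPL2, ATG5, ATG7, BECN1, ULK1 and TFEB, found by gene symbol among the 61541 genes of the count table, and all 10 passed the DESeq2 filter on low counts. MDA-MB-231, a breast cancer cell line, was sequenced as RNA in 2 groups of 2 libraries. The cadmium group had been selected for resistance by serial passage in medium with cadmium sulfate, at a final concentration of 10 µM. The control group was the same line, not treated, and the paper calls these control cells matching. The labels call the controls biological replicates, and nothing states that the cadmium libraries came from separately selected lines, so p-values measure only the spread between these libraries. Libraries are named by the numbers in the count table, control 2, control 3, cadmium 1 and cadmium 2.

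In autophagy the ULK1 kinase starts the process, and a lipid kinase complex built on beclin 1, the product of BECN1, marks the membrane where an autophagosome forms. Small ubiquitin-like proteins of the ATG8 family, among them LC3B and the GABARAP proteins, are then attached to a membrane lipid by enzymes that include ATG7 and a conjugate holding ATG5. Cargo receptors such as p62, encoded by SQSTM1, and NBR1 bind ubiquitin-tagged cargo and ATG8 proteins together, and the transcription factor TFEB drives genes of lysosomes and autophagy. Transcript levels do not measure autophagic flux, because much of the pathway is regulated on the proteins and p62 itself is degraded with its cargo.

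The libraries held between 51934729 and 61916007 reads assigned to genes. For 12924 genes whose normalized counts averaged 100 or more, the robust SD of the log2 ratio of one control to the other was 0.56, and for the cadmium libraries it was 0.16. The controls thus stood further apart than the cadmium libraries. MT2A, a metallothionein gene that responds to cadmium, had normalized counts of 37771 and 20700.2 in the controls and 112331 and 130956 in the cadmium libraries (DESeq2 adjusted p = 9.41e-06). The other genes chosen as checks, MTF1, MT1X and HMOX1, are not reported here. The 5 genes chosen as present in this line, such as VIM and CD44, summed to between 4038 and 4411 CPM (counts scaled to the library total) in a library. Of 5 genes chosen as absent or low, ESR1 and PGR were under 1 CPM in every library. The other 3, CDH1, ERBB2 and EPCAM, each reached 1 CPM in some library. The list summed to 128 to 159 CPM in control and 102 to 106 CPM in cadmium libraries. Lists for fibroblasts (22.2 to 30.3 and 20.4 to 25.7 CPM), endothelium (3.21 to 15.7 and 12.4 to 13.8 CPM) and neural cells (7.61 to 10.4 and 5.45 to 7.38 CPM) had lower sums. In them 3 of 5, 2 of 3 and 1 of 3 genes reached 1 CPM in some library, and their part in the results was not tested. In bulk RNA, fewer cells with a transcript and less of it per cell cannot be told apart.

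No autophagy gene of the 10 differed between cadmium-resistant and control cells at a DESeq2 adjusted p-value below 0.1. That threshold called 225 of 19816 tested genes, or 1.14%. SQSTM1 and ULK1 had the highest fold changes, at 1.45-fold and 1.46-fold of control, and TFEB had the lowest at 0.550-fold. The median log2 fold change of the 10 genes was 0.050, with 5 higher and 5 lower, beside a median of -0.023 over all tested genes. At an unadjusted p-value below 0.05 DESeq2 gave 1 of the 10, TFEB, against 6.92% of all tested genes. The quasi-likelihood test of edgeR and limma-voom also called 0 of the 10 after adjustment, as they did for all genes. Each gave SQSTM1 an unadjusted p-value below 0.05, against 7.83% and 7.4% of all genes they tested. In 7 of the 10 genes the groups did not overlap, against 40.3% of all tested genes. In 5 of them both cadmium libraries lay above both controls, where 20.3% of all tested genes did so, and in 2 both lay below, against 19.9%. These shares were not tested against each other.

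**Figure D1:**
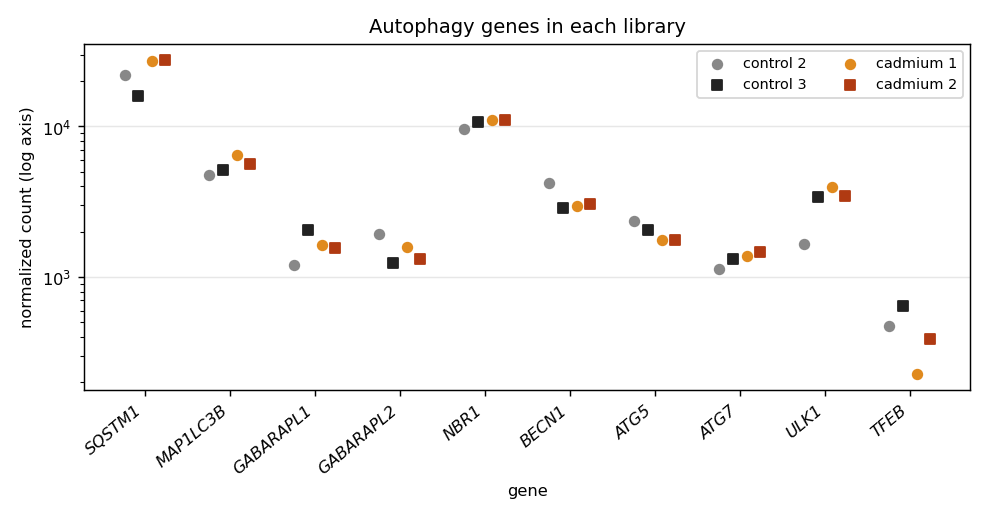
Normalized count of each gene (log axis) in control 2, control 3, cadmium 1 and cadmium 2, with 1 point for each library. SQSTM1 had the highest counts, from 15897 to 27746, and TFEB the lowest, from 226 to 648.

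Levels can be compared between genes only per length, as RPKM, the reads per kilobase of exon scaled to the assigned reads of a library. The length includes exon bases shared with another gene, where reads were dropped as ambiguous. MRNIP shares 21.0% of the exon bases of SQSTM1, VGLL4 18.1% of those of ATG7 and CNTD1 12.4% of those of BECN1. RPKM can thus be lowered unequally, and comparisons between genes are approximate. SQSTM1 was the most abundant in every library, at 49.8 and 38.2 RPKM in the controls and 65.4 and 65.9 RPKM in the cadmium libraries. NBR1 followed at 21.3 ± 2.38 RPKM in control and 23.9 ± 0.297 RPKM in cadmium-resistant cells (SD, n = 2 each). MAP1LC3B came next at 17.4 ± 1.60 and 21.7 ± 2.29 RPKM (SD, n = 2 each). These 3 genes kept the same order in all 4 libraries, and within each group their library values did not overlap. The middle of the order was not resolved. In control, BECN1 at 9.71, GABARAPL2 at 9.21, GABARAPL1 at 7.10, ATG5 at 6.83 and ULK1 at 5.91 RPKM each overlapped the next one. In cadmium-resistant cells ULK1 at 8.80, GABARAPL2 at 8.68 and BECN1 at 8.53 RPKM overlapped in the same way. ATG7 at 2.45 and 2.92 RPKM was next to last in every library, in control and cadmium in that order. TFEB was last, at 1.21 and 1.74 RPKM in the controls and 0.613 and 1.04 RPKM in the cadmium libraries.

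The cargo receptor genes were examined first. SQSTM1 (ENSG00000161011, chromosome 5, 179806398 to 179838078, hg38, plus strand) encodes p62, which also binds KEAP1, the inhibitor of the antioxidant factor NRF2. The normalized counts of 21979 (control 2) and 15897 (control 3) compared with 27006 (cadmium 1) and 27746 (cadmium 2). Both cadmium libraries were above both controls and within a log2 ratio of 0.039 of each other, while the controls differed by 0.47 on the log2 scale. The log2 fold change was 0.53 (SE 0.28, 95% interval from -0.024 to 1.09, DESeq2 adjusted p = 0.756). Taking each cadmium library against each control, 4 pairings, the log2 ratio ran from 0.30 to 0.80. The size of the change depended on the controls, because DESeq2 without control 2 gave 0.78 and without control 3 gave 0.31. It gave 0.55 without cadmium 1 and 0.51 without cadmium 2. In the fits without a control only the cadmium pair informed the spread, and the single control was assumed to vary as little. P-values of fits that leave 1 library in a group are therefore not given. MRNIP on the opposite strand covers 21.0% of the SQSTM1 exon bases, and reads there were dropped as ambiguous.

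NBR1 (ENSG00000188554, chromosome 17, 43170481 to 43211689, plus strand) encodes a receptor that works beside p62 in protein aggregates. Its normalized counts of 9677 and 10682 in the controls and 11103 and 11119 in the cadmium libraries were nearly level. The log2 fold change was 0.13 with a 95% interval from -0.35 to 0.60 (DESeq2 adjusted p = 1.00). Per length, SQSTM1 exceeded NBR1 by a ratio of 2.53 (control 2), 1.66 (control 3), 2.71 (cadmium 1) and 2.78 (cadmium 2). Control 2 thus sat close to the cadmium libraries in this ratio and control 3 stood apart.

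The ATG8 genes had fold changes on both sides of 0 on the log2 scale. MAP1LC3B (ENSG00000140941, chromosome 16, 87383953 to 87404779, plus strand), which encodes LC3B, had normalized counts of 4799 and 5155 in the controls and 6450.1 and 5662 in the cadmium libraries. The groups did not overlap, and the log2 fold change was 0.28 with a 95% interval from -0.21 to 0.78 (DESeq2 adjusted p = 1.00). DESeq2 gave 0.23 without control 2 and 0.32 without control 3. GABARAPL1 (ENSG00000139112, chromosome 12, 10212458 to 10223128, plus strand) had 1199 and 2050.0 normalized counts in the controls, and the cadmium libraries, at 1624 and 1564, lay between them. Its log2 fold change of -0.027 had a 95% interval from -0.71 to 0.66 (DESeq2 adjusted p = 1.00). It turned to 0.40 without control 3 and was -0.36 without control 2.

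GABARAPL2 (ENSG00000034713, chromosome 16, 75566375 to 75577881, plus strand) showed the opposite order of controls, at 1934 (control 2) and 1239.8 (control 3) normalized counts. The cadmium libraries, at 1573 and 1315, again lay between the controls. The log2 fold change was -0.14 with a 95% interval from -0.79 to 0.52 (DESeq2 adjusted p = 1.00). The value was 0.22 without control 2 and -0.43 without control 3. These ATG8 genes have close copies that could share or lose reads. MAP1LC3B2, the nearest copy of MAP1LC3B, had between 151 and 274 reads in a library. MAP1LC3BP1 and GABARAPL3 had at most 2. GABARAP itself was listed at 8 to 41 reads, and another gene shares 35.4% of its exon bases, so its count was not read as a level.

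The conjugation genes were close to each other in size of change and opposite in sign. ATG7 (ENSG00000197548, chromosome 3, 11272309 to 11557665, plus strand), which encodes the activating enzyme for the ATG8 proteins, had normalized counts of 1138 and 1316 in the controls and 1391 and 1469 in the cadmium libraries. Both cadmium libraries were above both controls (log2 fold change 0.22, 95% interval from -0.30 to 0.75, DESeq2 adjusted p = 1.00). Exons of VGLL4 on the opposite strand cover 18.1% of its exon bases. ATG5 (ENSG00000057663, chromosome 6, 106045423 to 106325791, minus strand) had 2359 and 2039 normalized counts in the controls. Its cadmium libraries had 1773 each, which was below both controls. The log2 fold change was -0.31 (SE 0.26, 95% interval from -0.82 to 0.20, DESeq2 adjusted p = 0.992), and it was -0.20 without control 2 and -0.42 without control 3.

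Of the genes that start autophagy, BECN1 and ULK1 each had control 2 apart from the other libraries. BECN1 (ENSG00000126581, chromosome 17, 42810134 to 42833350, minus strand) had a normalized count of 4234 in control 2. The other libraries were close together, at 2890.0 (control 3), 2976 (cadmium 1) and 3079 (cadmium 2). Its log2 fold change of -0.23 (95% interval from -0.83 to 0.36, DESeq2 adjusted p = 1.00) turned to 0.065 without control 2 and was -0.50 without control 3. Exons of CNTD1 on the opposite strand cover 12.4% of its exon bases. ULK1 (ENSG00000177169, chromosome 12, 131894622 to 131923150, plus strand) showed the reverse, with 1655 normalized counts in control 2 against 3417, 3968 and 3452 in control 3, cadmium 1 and cadmium 2. Both cadmium libraries were above both controls, but cadmium 2 exceeded control 3 by only 0.014 on the log2 scale. The log2 fold change was 0.55 (SE 0.39, 95% interval from -0.22 to 1.32, DESeq2 adjusted p = 0.943). It was 0.12 without control 2 and 1.15 without control 3.

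TFEB (ENSG00000112561, chromosome 6, 41683978 to 41736259, minus strand) had the fewest reads of the 10, between 227 and 609 in a library. They came to 475 (control 2), 648 (control 3), 226 (cadmium 1) and 391 (cadmium 2) normalized counts. Both cadmium libraries were below both controls, but they differed from each other by 0.79 on the log2 scale, nearly as much as the groups. The log2 fold change was -0.86 (SE 0.40, 95% interval from -1.66 to -0.071, unadjusted p = 0.0326, DESeq2 adjusted p = 0.612). It was -1.32 without cadmium 2, -0.53 without cadmium 1, -1.07 without control 2 and -0.63 without control 3.

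**Figure D2:**
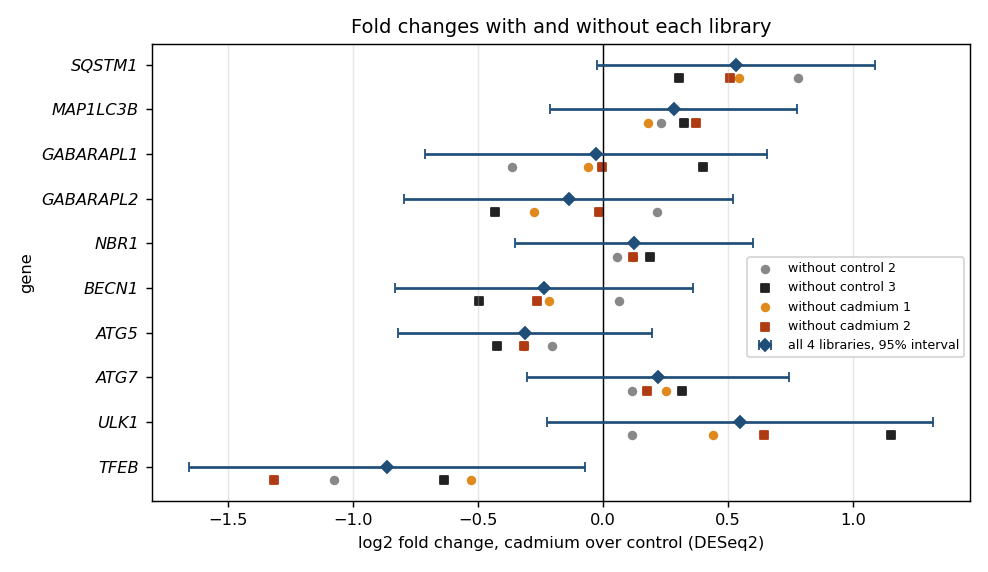
DESeq2 log2 fold change of cadmium over control for each gene, with the 95% interval from all 4 libraries (diamonds and bars) and the value without each library (points below). The values without control 2 or control 3 flank that of all libraries, most widely in ULK1 (0.12 and 1.15), and in BECN1, GABARAPL1 and GABARAPL2 they lie on either side of 0.

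In 8 of the 10 genes the gap between the controls was wider than the gap between the cadmium libraries, and in 5 it was wider than the difference between the group means. Its median size over the 10 genes was 0.46 on the log2 scale, beside 0.39 over the 12924 genes named above. The gap between cadmium libraries had a median size of 0.066 in the 10 genes and 0.11 over those genes. The 95% intervals lay within a 2-fold change in either direction for 7 genes. They reached past 2-fold for SQSTM1, ULK1 and TFEB.

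**Figure D3:**
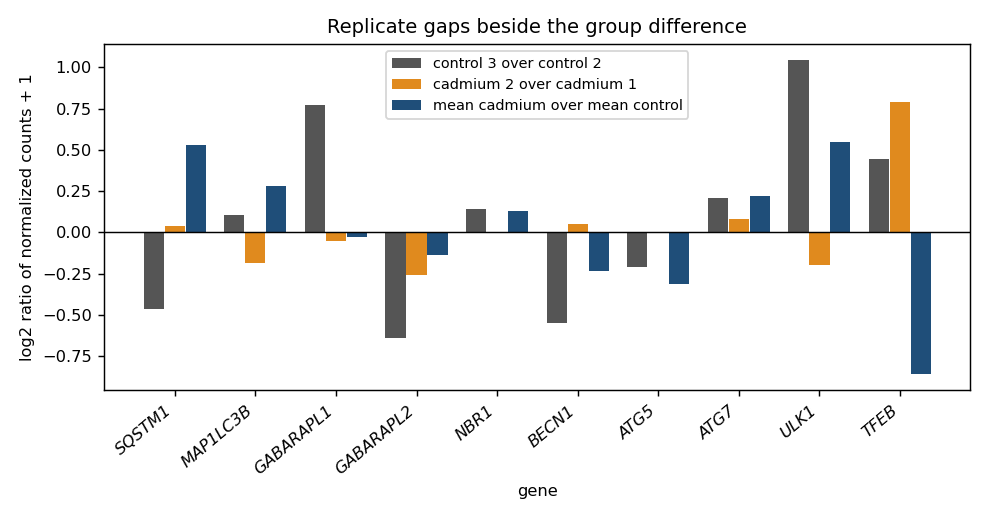
Log2 ratio of normalized counts plus 1 for control 3 over control 2 (grey), cadmium 2 over cadmium 1 (orange) and the mean of cadmium over the mean of control (blue) in each gene. The control gap reached 1.05 in ULK1 and 0.77 in GABARAPL1, and TFEB had the widest cadmium gap, 0.79.

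Stretches of neighbouring genes can differ together between libraries, so each gene was set beside the 40 nearest of those 12924 genes. TFEB lies in a stretch of chromosome 6 (39958414 to 43456632) whose neighbours had a median log2 ratio of cadmium over control of 0.28, and TFEB, at -0.86, was lower than each of the 40. SQSTM1 at 0.53 was higher than 38 of its 40 neighbours, whose median was -0.069. ULK1 at 0.55 was higher than 39 of its neighbours, whose median was 0.031. For GABARAPL1 the neighbours had a median of 0.67 for control 3 over control 2, close to the 0.77 of the gene itself. The neighbours of ULK1, on the other end of chromosome 12, had 0.23 for that ratio against 1.05 for ULK1. For SQSTM1 the neighbours had 0.0091 against -0.47. Neighbours and gene thus moved together between the controls in GABARAPL1, less so in ULK1 and not in SQSTM1. The sign was opposite for BECN1 (neighbours 0.15, gene -0.55), ATG5 (0.11 and -0.21), ATG7 (-0.078 and 0.21) and MAP1LC3B (-0.092 and 0.10). It was the same for GABARAPL2 (-0.077 and -0.64), NBR1 (0.22 and 0.14) and TFEB (0.12 and 0.45). The part of such stretches in the results was not tested.

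**Figure D4:**
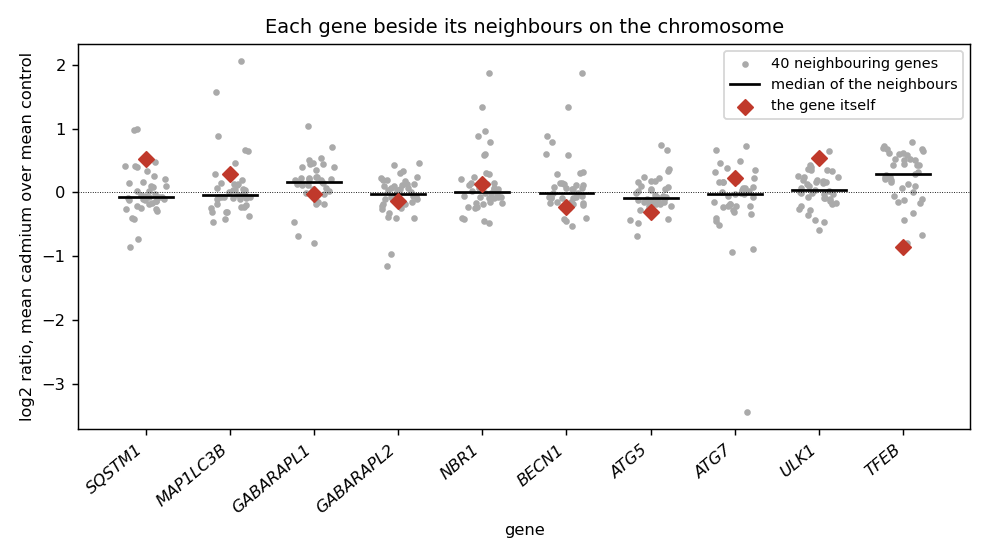
Log2 ratio of the cadmium mean to the control mean for each gene (red diamonds) and its 40 nearest expressed genes on the chromosome (grey points, with their median as a black line). TFEB at -0.86 lies under all of its neighbours, whose median is 0.28, while each of the other genes has neighbours on both sides of it.

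The wider pathway was read from 8 lists that hold 134 further genes. Of these 133 were tested, and 1 was called, the higher TFEC, against 1.14% of all tested genes. The median log2 fold change over the 133 genes was -0.038, with 60 higher and 73 lower. At an unadjusted p-value below 0.05 DESeq2 gave 3 higher genes (TFEC, SESN2 and SESN3) and 2 lower genes (FUNDC1 and GAA) of the 133, against 6.92% of all tested genes. By edgeR and by limma-voom 0 were called, and 9 had an unadjusted p-value below 0.05 with each, against 7.83% and 7.4% of all genes they tested. TFEC (chromosome 7), a relative of TFEB in the MiT family of transcription factors, had 0 and 2 reads in the controls and 31 and 51 in the cadmium libraries. The ratio of normalized reads was 40.6, with an exact 95% interval for counting error from 10.9 to 341. It was 6.89 to 1642 if reads are divided by 2 to allow for mates counted separately. DESeq2 gave an adjusted p-value of 0.0249, and edgeR and limma-voom gave 0.587 and 0.669. Without either cadmium library, or without control 2, TFEC fell under the DESeq2 filter and had no adjusted p-value. The other members of its family in the list, TFE3 and MITF, had log2 fold changes of 0.052 and 0.39 (DESeq2 adjusted p = 1.00 for each).

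By role, none of the 22 further cargo receptor genes was called, and their median log2 fold change was -0.042. They ranged from CCPG1, a receptor for the endoplasmic reticulum, at 0.51 to FUNDC1, a mitophagy receptor, at -0.72 (DESeq2 adjusted p = 1.00 and 0.601). CCPG1 had 195 normalized counts in control 2 and between 523 and 562 in the other libraries, so only control 2 stood apart. FUNDC1 had 1145 and 759 normalized counts in the controls and 545 and 608 in the cadmium libraries. Of the 13 further genes of the ATG8 family and its conjugation none was called, with a median of -0.079. Among those averaging 50 normalized counts or more, MAP1LC3B2 was at 0.42 and ATG10 at -0.48 (DESeq2 adjusted p = 1.00 for each). The 14 genes of initiation and membrane supply had 0 calls and a median of -0.0034. VMP1, which acts on the endoplasmic reticulum membrane, was at 0.36, and ULK2, the paralog of ULK1, was at -1.14 (DESeq2 adjusted p = 0.922 and 0.761). ULK2 had 1167 normalized counts in control 2 and 259, 295 and 354 in control 3, cadmium 1 and cadmium 2, the reverse of ULK1.

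In the beclin and VPS34 list 9 of 10 genes were tested and 0 called, with a median of -0.18. ATG14 and PIK3C3, which encodes the lipid kinase itself, had log2 fold changes of 0.32 and -0.37 (DESeq2 adjusted p = 1.00 for each). The 14 genes of autophagosome fusion had 0 calls and a median of -0.067, between VPS18 at 0.21 and VAMP8 at -0.38 (DESeq2 adjusted p = 1.00 and 0.901). Of the 29 lysosomal genes none was called, and the median was -0.0047. NEU1, a sialidase, was at 0.53 and GAA, the lysosomal alpha-glucosidase, at -0.67 (DESeq2 adjusted p = 0.921 and 0.407). GAA had 4593 and 5604 normalized counts in the controls and 3415 and 3012 in the cadmium libraries, with no overlap of the groups. The 30 TFEB relatives and nutrient signalling genes held TFEC as the 1 call and had a median of 0.039. SESN3, a sestrin that acts on mTORC1, was at 0.95 and PRKAA2 at -0.51 (DESeq2 adjusted p = 0.572 and 0.901). SESN2, a sestrin as well and named here after its values were seen, had 879 and 1202 normalized counts in the controls and 2402 and 1595 in the cadmium libraries (log2 fold change 0.94, DESeq2 adjusted p = 0.284). KEAP1 and NFE2L2, which encodes NRF2, were at -0.13 and -0.12, and their cadmium libraries lay between the controls (DESeq2 adjusted p = 1.00 for each).

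**Figure D5:**
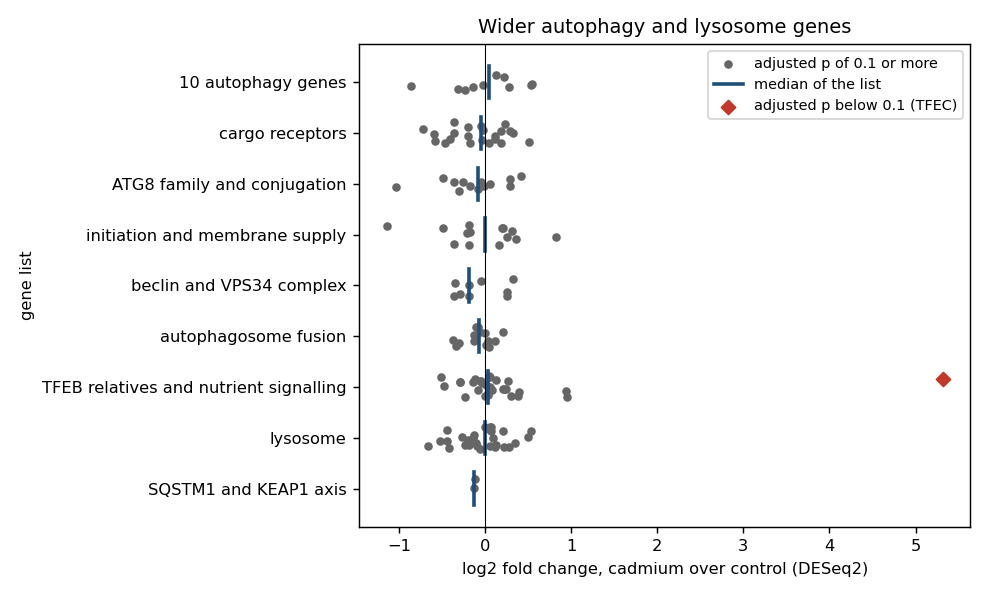
DESeq2 log2 fold change of every tested gene in the 10 autophagy genes and the 8 wider lists, with the median of each list as a blue line. Medians lay between -0.18 and 0.050, and TFEC, at 5.31 from 0 and 2 control reads, was the 1 gene with an adjusted p-value below 0.1 (red diamond).

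The study asked how the metal response factor MTF-1 acts in cadmium, so the 250 bases before the RefSeq starts of these genes were searched on both strands for 4 short motifs. The 10 genes had 16 such windows in GRCh38.p14. The core of the metal response element, TGCACNC or TGCGCNC, matched in 6 of the 16, in windows of ATG7, SQSTM1, TFEB and NBR1, and in 24.8% of all 35116 windows. The core of the antioxidant response element, TGACNNNGC, matched in 1, before MAP1LC3B, and in 10.9% of all windows. The E-box CACGTG of the element bound by TFEB matched in 0 of the 16 and in 6.34% of all windows, and the AP-1 sites TGACTCA and TGAGTCA in 0 and in 4.20%. A match describes letters only, and none in these windows says nothing of the factor. The paper reports that MTF-1 binding changed mostly away from gene starts. Gained sites there were enriched for FOS/JUN (AP-1) motifs and lost sites for FOX motifs, which were not searched here. It also cites earlier work in which MTF-1 in cadmium did not use consensus metal response elements. The matches are thus not a readout of MTF-1 binding in cadmium. TFEB and ULK1 had the lowest and the highest fold change. TFEB has 3 windows, of which 1 has no match to any of the motifs and is not shown. The windows shown are the other two of TFEB (chr6:41735061-41735310 and chr6:41734402-41734651, minus strand) and that of ULK1 (chr12:131894372-131894621, plus strand), with matches of the metal response element core in capitals. They hold no annotated exon base of the count table.
TFEB, chr6:41735061-41735310: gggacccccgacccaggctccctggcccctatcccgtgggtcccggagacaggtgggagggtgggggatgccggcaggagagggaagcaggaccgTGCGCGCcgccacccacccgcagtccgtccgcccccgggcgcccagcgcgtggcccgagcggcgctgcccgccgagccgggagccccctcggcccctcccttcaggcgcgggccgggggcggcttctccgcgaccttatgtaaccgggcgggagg
TFEB, chr6:41734402-41734651: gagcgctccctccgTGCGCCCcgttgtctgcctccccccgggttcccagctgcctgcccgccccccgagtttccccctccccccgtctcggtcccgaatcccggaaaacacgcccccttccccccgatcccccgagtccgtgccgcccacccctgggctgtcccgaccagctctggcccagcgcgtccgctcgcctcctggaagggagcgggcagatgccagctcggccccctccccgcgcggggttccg
ULK1: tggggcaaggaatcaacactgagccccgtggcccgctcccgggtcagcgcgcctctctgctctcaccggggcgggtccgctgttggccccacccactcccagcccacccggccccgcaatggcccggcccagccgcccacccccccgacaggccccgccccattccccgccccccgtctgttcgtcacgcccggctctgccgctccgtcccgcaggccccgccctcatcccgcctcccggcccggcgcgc
The matches begin at positions -155 and -236 in these TFEB windows, where -1 is the base before the start. ULK1 has no match to any of the 4 motifs.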

How the data were processed

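Total RNA from control and cadmium-resistant MDA-MB-231 cells was made into 2 mRNA libraries for each group and sequenced as read pairs. The authors removed adaptors (bbduk), mapped reads to hg38 (hisat2) and counted them on Ensembl genes (featureCounts 2.0.1), and the deposited values are raw counts per gene. Default options applied, so strand was ignored, ambiguous and multi-mapping reads were dropped and each mate was counted, which makes fragments fewer than counts. Total counts were 51934729 to 61916007. The control columns carry the numbers 2 and 3, the labels 1 and 2 and the header command letters, so control columns were assigned by group only.

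Gene symbols were matched by Ensembl identifier for 61369 of 61541 genes. DESeq2 1.42.0 in R 4.3.3, the tool of the study, was fitted to all genes (design: group, Wald test, two-sided, Benjamini-Hochberg adjustment, threshold 0.1). Intervals are 95% Wald intervals. Ratios between libraries used log2 of the normalized count plus 1. RPKM was computed from the counts, exon lengths and total counts. Alternatives were edgeR 4.0.16, limma 3.58.1 (voom), factors by TMM or by upper quartile in DESeq2, no independent filtering, at least 10 counts in 2 libraries, an adjusted p below 0.05, 20 neighbours, and leaving out each library. The fits were tested on simulated data with the same spread in both groups, unlike these libraries. There each tool missed most 2-fold changes, recovered most 4-fold changes and called some unchanged genes. Genes, lists and tests were chosen with earlier results of these data known. Named genes were the 10 genes, their copies and overlapping genes, called genes of the wider lists, the highest and lowest gene of each list among those averaging 50 normalized counts or more, and check and marker genes. MITF, TFE3, SESN2 and GABARAP were named after their values were seen. The list of blood and immune markers is not reported here. Plots used Python 3.11.15.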

Additional observations from a re-analysis of the deposited data

How the results depend on the processing

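No paired analysis was possible because the count columns number the controls 2 and 3 and the labels number them 1 and 2. The alternatives that kept all libraries gave 70 values for the 10 genes, and 68 kept their direction and, where a test was run, their side of the threshold. The exceptions were both in GABARAPL1, which was 0.037 with limma-voom and 0.031 with upper-quartile factors. Calls over the whole table, 119 higher and 106 lower, became 0 and 0 with edgeR and with limma-voom, where the unadjusted p-value was below 0.05 for 1506 and 1423 genes. The 1 higher gene of the wider lists became 0 with both, where 9 had such a p-value with each. With 20 neighbours the median of neighbours was 0.028 for ATG7 and 0.43 for TFEB. Levels without division by length left 6 genes in their place in the control order. Leaving out a library moved the log2 fold change of SQSTM1 between 0.31 and 0.78, MAP1LC3B between 0.18 and 0.37, GABARAPL1 between -0.36 and 0.40, GABARAPL2 between -0.43 and 0.22, NBR1 between 0.055 and 0.19, BECN1 between -0.50 and 0.065, ATG5 between -0.42 and -0.20, ATG7 between 0.12 and 0.32, ULK1 between 0.12 and 1.15 and TFEB between -1.32 and -0.53. The 10 genes then had 0 to 4 higher and 0 to 3 lower calls. The wider lists had 0 to 26 and 0 to 39, and all tested genes had 9 to 2678 and 5 to 3511. The highest numbers came without control 3, with 2678 higher and 3511 lower, against 1150 and 1161 without control 2. Both of these fits estimate the spread from the cadmium pair alone, and the cause of their difference was not tested. The number of genes tested in each fit without a library is not given here. The calls among the 10 genes therefore cannot be set against a share of all tested genes, and no conclusion is drawn from them. Each of the 10 genes had at least 227 reads in every library, and each group had 2 libraries.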
